A study of Mus musculus with 2 samples.

Results

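The replication-dependent histone genes are the multicopy genes that encode the core histones H2A, H2B, H3 and H4 and the linker histone H1. Here they were taken as every row of the expression table whose gene symbol begins with Hist1 to Hist4 followed by h1, h2a, h2b, h3 or h4. That rule found 62 of the 18088 genes in the table, of which 5 encode H1, 17 H2A, 17 H2B, 11 H3 and 12 H4. Of the 62, 61 had at least 30 summed values over all cells, the minimum used for ratios. The member below it was Hist1h4f, with 25. The reference annotation listed 70 genes under the rule, and the other 8 had no row and were not analysed here.

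The cells came from the medial ganglionic eminence (MGE), an embryonic ventral forebrain region that produces interneurons and cholinergic neurons, of CD-1 mouse embryos at E11.5. Single-cell libraries were made in droplets (10x Chromium). MULTI-seq, which tags each cell suspension with oligos held in the membrane by a lipid anchor, let several suspensions be pooled. The embryos belonged to the enhancers hs192 and hs799, and of 6 sample barcodes 4 marked GFP-gated cells (2 per enhancer) and 2 marked ungated cells, so the gate can set the share of any cell class. No map from cells to barcodes was used, so the matrix is 1 sample, the enhancers were not compared, and no difference below was set against a spread between animals. Deposited values are whole numbers corrected for depth, not raw counts. A level here is a gene's summed value per 10000 summed values of a group of cells, and its SD is over cells of this 1 library. Cell totals ran from 10475 to 14196, and the raw depth is unknown.

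Replication-dependent histone transcripts are made in bulk while DNA is copied, when new chromatin needs packaging. Most end in a conserved stem-loop in place of a poly(A) tail. The stem-loop-binding protein, Slbp, holds that stem-loop during processing and translation, and the transcripts are destroyed when replication ends. Replacement variants such as H3f3a, H3f3b and H2afz come from ordinary polyadenylated genes used through the whole cycle and in cells that no longer divide. Per the labels the libraries were made from poly(A) RNA, so transcripts without a tail may be recovered in part only. How much was lost was not tested.

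The genes lie in a few blocks of the mouse genome (coordinates of GRCm38). On chromosome 13 the Hist1 family had 21 members within 21715763 to 22043676 and 28 within 23531050 to 23764406, and 1 pseudogene, Hist1h2al, at 51202727 to 51203065. The 8 Hist2 members lie on chromosome 3 between 96219865 and 96270132. The 3 Hist3 members lie on chromosome 11 between 58948920 and 58956830, and Hist4h4 on chromosome 6 between 136801553 and 136804415. Of the 62, 60 are annotated as protein-coding and 2 as pseudogenes (Hist1h2al and Hist3h2bb-ps), and 58 have a single exon in their longest transcript.

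The 3′ end of the transcripts carries the feature that sets this gene class apart, so it is printed here for 6 members of high value. Each line gives bases 5′ to 3′ on the gene's strand, with the stem-loop in capitals.
Hist1h2ap: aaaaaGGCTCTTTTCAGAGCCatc
Hist1h1e: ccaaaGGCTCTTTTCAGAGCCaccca
Hist1h4d: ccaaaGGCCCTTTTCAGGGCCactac
Hist1h3c: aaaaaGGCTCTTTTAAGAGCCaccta
Hist3h2ba: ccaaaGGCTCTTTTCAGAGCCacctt
Hist3h2a: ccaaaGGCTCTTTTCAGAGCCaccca
These letters matched in 41 of the 62 members, and 23 of those 41 held exactly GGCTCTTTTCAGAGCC. The 6 members printed were taken from these 41, and they include the pair on chromosome 11 that behaved unlike the rest. For the other 21 no match was present in the annotated transcript, among them Hist1h1b, whose annotated transcript is 743 bases long. Some of these transcripts are short, such as those of Hist1h4k with 312 bases and Hist1h2bl with 381. A stem-loop beyond an annotated end could not be found, so no match does not show that a member lacks one. In 12 members the letters AATAAA, the usual polyadenylation signal, also stood in the last 50 bases of an annotated transcript. For 3 of them the signal is printed in capitals with its flanks.
Hist3h2ba: cataatggtattAATAAAtttggttcaatt
Hist3h2a: aggtatatgcccAATAAAataagagtacgt
Hist1h2ae: cccagcttctccAATAAAtgggtcaatttt
For Hist3h2ba the stem-loop was followed by 169 annotated bases, for Hist1h2ae by 151 and for Hist3h2a by 1643, whereas the annotated transcript of Hist1h2ap ended 3 bases after it. Both signals on chromosome 11 thus lie downstream of an intact stem-loop.

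Members share much sequence, which limits how far single genes can be told apart. Over 90-base windows, the median member had 64.1% of its transcript found in no other annotated gene, and 23 members had under 50%. Hist1h2ap, the member with the highest summed value, had 7.63%, sharing the rest mostly with Hist1h2ao, so its value is uncertain as a value of 1 gene. Hist1h1b had 100% and Hist3h2ba 91.4%. By position, 22 members overlap another annotated gene, 6 of them on the same strand. Hist3h2a (58954685 to 58956830, plus strand) lies wholly within Trim17 on the same strand, and Trim17 had no row. Hist1h1e and Hist1h2be overlap by 496 bases. The sources used here do not say how the authors' counting split such reads.

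A few members made up most of the histone signal. Together the 62 held 0.593% of all summed values. Hist1h2ap (ENSMUSG00000094777, an H2A gene) alone gave 26.9% of the members' sum and Hist1h1b (ENSMUSG00000058773, a linker histone) 16.0%. Hist3h2ba (ENSMUSG00000056895, an H2B gene) gave 14.3%, Hist1h1e (a linker histone) 8.01% and Hist1h2ae (an H2A gene) 7.60%. The first 5 members held 72.8% and the first 20 held 92.3%, while 6 members stayed under 100 summed values. These shares were not scaled to transcript length. H2A gave 48.2% of the members' sum in cycling cells and H1 32.9%, against 6.76% for H2B, 6.20% for H3 and 5.97% for H4.

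Cells were grouped by clustering without the member genes, so that no histone value decided the groups. The 16 clusters were named from fixed marker lists as ventricular zone (VZ) progenitor-like (1137 cells), subventricular zone (SVZ) progenitor-like (604), GABAergic MGE neuron-like (916), cholinergic neuron-like (905), neuron-like cells of the lateral ganglionic eminence (LGE; 242) and glutamatergic neuron-like (40), and 151 cells stayed unnamed. The summed VZ marker level was 74.5 in VZ-like cells and 9.37 in MGE neurons, by which are meant the GABAergic and cholinergic classes together (1821 cells). Nkx2-1, which marks the MGE, stood between 1.98 and 4.81 in the 4 MGE classes and at 0.25 in LGE-like cells. Of the 6 markers each of microglia and endothelium, 1 and 2 had a row, so these cell types could not be judged.

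Summed over all members, the histone level was highest in cycling progenitors, and there it was split into a low and a high set of cells. In VZ-like cells it ran from 0.742 to 442 per 10000, with a mean of 115.6 (SD 120 over cells) and a median of only 26.5. In SVZ-like cells it ran from 2.39 to 409, with a mean of 75.7 (SD 110) and a median of 15.6. In GABAergic neuron-like cells it ran from 3.70 to 56.7, with a median of 20.8, and in cholinergic neuron-like cells from 3.47 to 71.2, with a median of 23.3. The progenitor medians thus lay on either side of the neuronal ones, whereas no cell outside the progenitor classes reached 100. The neurons' sum was of another make: without Hist3h2ba and Hist3h2a its mean was 6.19 in MGE neurons and 114 in VZ-like cells.

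Cycling cells were defined as the 6 clusters whose level of 32 replication genes and 32 G2 and mitosis genes, neither list holding a member, was above the mean of all cells. Those 1515 cells were split at the median of each list into 4 quadrants. Where both lists were low (222 cells) the summed histone level had a mean of 23.1 and a median of 12.5. Where replication genes alone were high (536 cells) the mean was 125 and the median 52.4. Where both were high (221 cells) the mean was 166 and the median 217, and where mitosis genes alone were high (536 cells) the mean was 122 and the median 111. Of the 221 cells with both high, 101 lay within 10% of a dividing median. In the quadrants with both low, replication alone high and mitosis alone high, 45, 68 and 86 cells did. On the log2 scale the means lay 2.43, 2.84 and 2.40 above the quadrant with both lists low. Median cell totals were 11974 in that quadrant and 13491 to 13533 in the other 3, so cell totals moved with this result, and their part in it was not tested. Quadrants drawn over all 3995 cells in place of the cycling ones turned 2 of these differences, to -0.35 for replication alone and -0.13 for mitosis alone, while both lists high kept 2.22. Within cycling cells they were 0.85, 1.27 and 0.72 with splits set above the median of each list, and 1.70, 2.03 and 1.65 at clustering resolution 2.

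**Figure D1:**
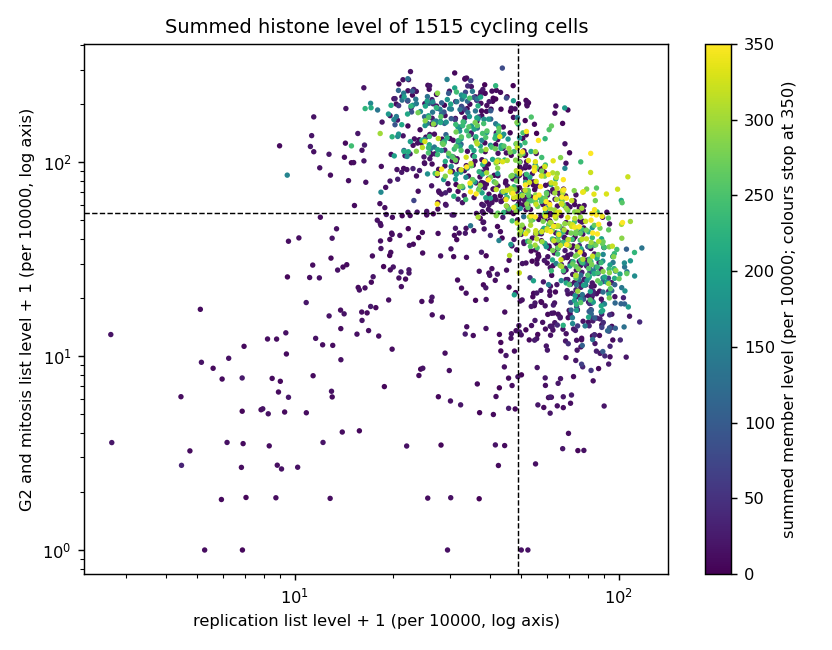
Each point is 1 of the 1515 cycling cells, placed by its level of the replication list (x) and of the G2 and mitosis list (y), both per 10000 plus 1 on log axes, and coloured by the summed level of the 62 members. Dashed lines are the medians that define the quadrants; the brightest cells lie around the crossing of high replication and rising mitosis levels, with dark cells among them.

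The histone level fell into separate ranges. In each of the 3 quadrants with a high list, cells gathered either near 10 to 20 or above 100, with few between. Taking 50 as a dividing level, chosen after this gap had been seen, 694 of the 1515 cycling cells (45.8%) lay at or above it, with a median of 241, and the rest had a median of 13.3. Only 73 cycling cells lay between 30 and 100, and in the quadrant with both lists high none of 221 did. The share at or above 50 was 4.50% with both lists low, 50.2% with replication high, 55.7% with both high and 54.5% with mitosis high. Among MGE neurons it was 0.549%. This cut is a range of 1 score and not a cell type.

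**Figure D2:**
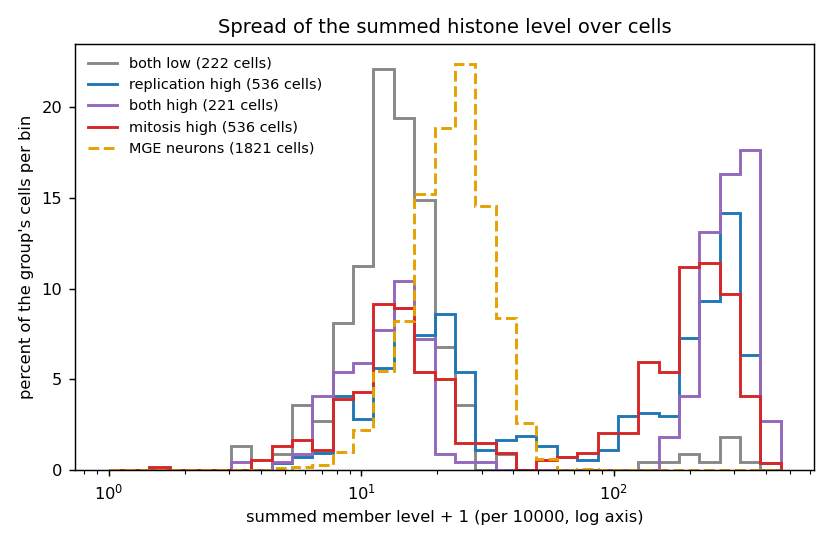
Percent of each group's cells (y) by summed member level plus 1, per 10000, on a log axis (x), for the 4 quadrants of cycling cells (solid lines) and for MGE neurons (dashed). The 3 quadrants with a high list each show a peak near 10 to 20 and another above 100, and the neurons form 1 peak whose median is 22.1.

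Placed in 12 bins of equal cell number around the cycle, starting in the middle of the low quadrant, the summed level climbed from 34.6 in bin 1 to 212 in bin 5 and was lowest, at 18.9, in bin 12. The replication list peaked in bin 4, Slbp in bin 5 and the mitosis list in bin 8. The mean of H1, H2A, H2B, H3 and H4 members each peaked in bin 5. For H4 this peak barely stood out, with 10.0 in bin 5 against 9.87 in bin 8 and 9.69 in bin 9. For H1 it was 75.1 in bin 5 and 43.4 in bin 8. The summed level was 185 in bin 6 and 130 in bin 7, and it stayed between 126 and 136 in bins 8 to 10. In bins 8 to 10 the share of cells at or above 50 was 57.9% to 63.0%, against 76.4% in bin 5 and 2.38% in bin 12. That share was 61.1% in bin 6 and 47.6% in bin 7, so it fell and rose again before bin 12. Of the 28 members with at least 1000 summed values, 20 peaked in bin 5, 3 in bin 6 and 3 in bins 8 or 9. The other 2, Hist3h2ba and Hist3h2a, were highest in bin 12, where the sum was lowest.

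**Figure D3:**
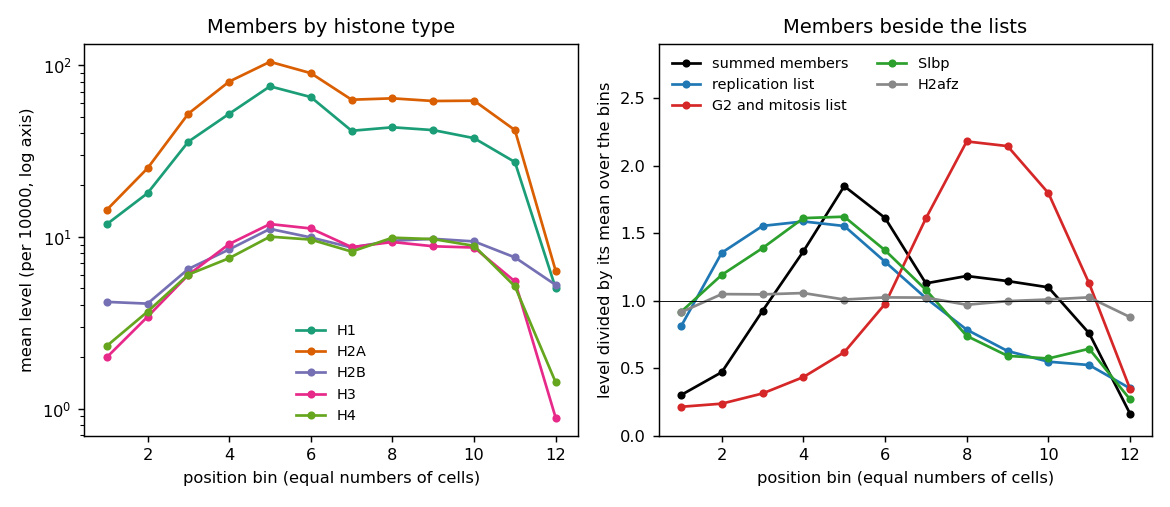
Left, mean level per 10000 (log axis) of the members of each histone type in 12 bins of 126 or 127 cycling cells ordered by angle in the plane of the 2 lists. Right, the summed members, both lists, Slbp and the variant H2afz, each divided by its own mean over the bins; all 5 types peak in bin 5, between the replication list (bin 4) and the mitosis list (bin 8).

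Most members followed the sum. Against the quadrant with both lists low, 57 of 61 members were at least 2-fold higher where replication genes were high, where 15.0% of all 15284 genes were. With both lists high the count was 56 (15.1% of all genes) and with mitosis genes high 57 (13.7%). The members' median log2 ratios were 2.48, 2.89 and 2.64, beside medians of 0.20, 0.19 and 0.18 over all genes. Hist1h2ap stood at 5.65 with both lists low, 42.5 with replication high, 54.1 with both high and 39.6 with mitosis high. Hist1h1b stood at 2.87, 27.0, 34.4 and 23.0 in the same order. The ratio was highest for Hist1h3g, an H3 gene of only 163 summed values, with log2 4.57 where replication genes were high and 4.48 where mitosis genes were high.

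The exceptions were few and recurred. Only Hist3h2ba and Hist3h2a were at least 2-fold lower with replication high (log2 -1.54 and -1.18), where 5.71% of all genes were. Hist1h2bc, an H2B gene with 2 annotated exons, and Hist2h3c2, an H3 gene, were within 2-fold in all 3 quadrants. Hist1h2bc stood at 0.38, 0.51, 0.51 and 0.42, and Hist2h3c2, with 111 summed values in all, between 0.0056 and 0.0074. These members were singled out after their values were seen.

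The histone types were compared between the 2 quadrants with 1 list high. Between the mitosis-high and the replication-high quadrants, and without the 3 members higher in neurons, the median log2 ratio was -0.16 over 5 H1 members, 0.08 over 16 H2A, 0.28 over 16 H2B, 0.17 over 10 H3 and 0.19 over 11 H4. For H2A the median and the sum differ in sign, since the summed H2A level was 61.6 with replication high and 59.7 with mitosis high. Of the H1 genes, Hist1h1b (-0.23) and Hist1h1a (-0.48) were lower with mitosis high, and Hist1h1e (0.08) and Hist1h1c (0.14) slightly higher. Among H4 genes Hist1h4d and Hist1h4h lay at 0.54 and 0.57, and among H2B genes Hist2h2bb at 0.83. All of these lie within 2-fold, and with 1 library no spread between animals is available to judge them.

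Across cycling cells most of the common members varied together whatever their type. The Spearman correlation of each member with the sum of the others, over 1515 cells of 1 library, was 0.87 for Hist1h1b, 0.86 for Hist1h2ap, 0.85 for Hist1h1e and Hist1h2ae, 0.82 for Hist1h4d and 0.81 for Hist1h3c. It was at least 0.5 for 24 of the 28 members with at least 1000 summed values. Between pairs of those members the median was 0.66 for 62 pairs of the same type and 0.64 for 263 pairs of different types, leaving out the Hist3 pair. Hist3h2ba (-0.16) and Hist3h2a (-0.02) did not follow the sum. Rare members correlate less in sparse values, and nothing is read from their lower figures.

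Outside the members and the fixed gene lists, and leaving out ribosomal protein genes and predicted genes without a name, the level across cycling cells went most with the histone sum for Fbxo5, an inhibitor of the anaphase-promoting complex (Spearman 0.65), Esco2, the acetyltransferase that locks sister chromatids together (0.63), and Pclaf, a partner of the sliding clamp PCNA (0.59). Of these remaining genes, the next were Dut, Prc1, Dek, Cdca2, Lig1, Smc4 and Tk1, from 0.48 down to 0.40. In the replication list Tyms (0.54), Rrm1 (0.35) and Rad51ap1 (0.34) were highest and Cdca7 (-0.27) lowest. In the G2 and mitosis list Top2a, the topoisomerase that untangles finished DNA (0.62), Aurkb (0.49) and Ndc80 (0.47) were highest. The centromeric histone Cenpa was lowest (-0.45). Over each whole list the median correlation was 0.20 for replication genes and 0.14 for G2 and mitosis genes, with ranges of -0.27 to 0.54 and -0.45 to 0.62.

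Inside the quadrants genes of both lists went with or against the sum, and those of the 3 highest and 3 lowest correlations are given. With replication genes high (536 cells) the sum went with Top2a (0.80), Aurkb (0.58) and Ndc80 (0.53). It went against Cenpa (-0.59), the cyclin Ccnb2 (-0.45) and Ung, a DNA repair glycosylase (-0.44). With both lists high (221 cells) it went with Top2a (0.62), Tyms (0.59) and Rrm1 (0.44) and against Cdc20 (-0.77), Cenpa (-0.71) and Ube2c (-0.64). With mitosis genes high (536 cells) it went with Tyms (0.50), Top2a (0.49) and Aurkb (0.40) and against Cdc20 (-0.64), Cenpa (-0.58) and Ccnb2 (-0.56). Top2a and Cenpa were thus named in each of the 3 quadrants, and the other genes in 1 or 2 of them. These are descriptions of cells of 1 library, with genes picked for their rank.

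The sum also differed between clusters. It was 34.1 in the VZ-like cluster led by Ung, Cdc6 and Cdt1 (cluster 8), 130 in the VZ-like cluster 3 and 204 in the VZ-like cluster led by Prc1, Aurkb and Cdk1 (cluster 4). It was 196 in the SVZ-like cluster 2, led by E2f2, and 70.9 in the SVZ-like cluster 1, led by Ube2c and Cdc20. It was 15.8 in the VZ-like cluster 7, led by Slc1a3, and 13.0 in the SVZ-like cluster 16, led by Gsx1, Helt and Dll3, which was not among the cycling clusters. Hist1h2ap ranged from 3.04 in cluster 7 to 67.7 in cluster 4 among cycling clusters, and stood at 1.67 in cluster 16.

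**Figure D4:**
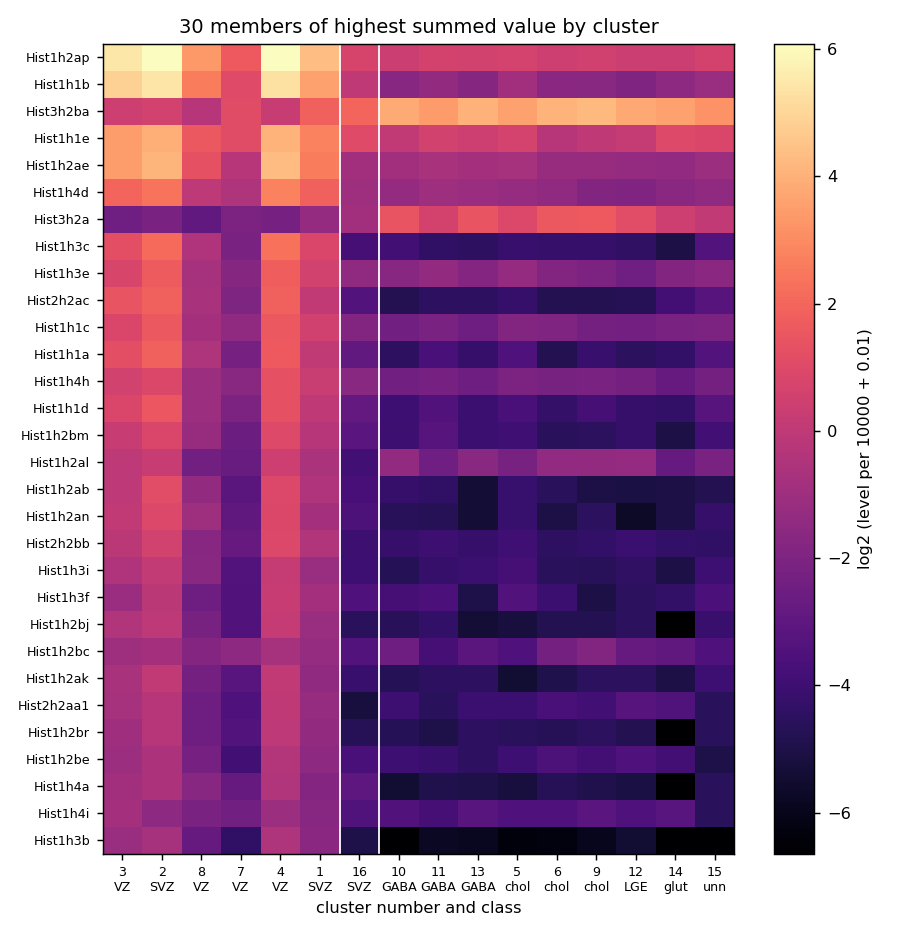
Level of the 30 members with the highest summed values (rows) in each of the 16 clusters (columns, numbered, with the class below), as log2 of the level per 10000 plus 0.01. White lines set off the 6 cycling clusters on the left and the non-cycling SVZ-like cluster 16; Hist3h2ba and Hist3h2a run opposite to most other rows.

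How VZ-like and SVZ-like progenitors compared depended on which cells of each were taken. Over whole classes, in SVZ-like cells 2 of 61 members were at least 2-fold higher than in VZ-like cells, where 6.70% of all genes were, and 5 were at least 2-fold lower, where 13.6% were. Both counts are lower shares of 61 than those of all genes, so nothing is read from them about the members. By a 1.5-fold rule 32 members were lower, where 26.2% of all genes were. The 2 higher were Hist3h2ba (3.24 ± 2.81 against 1.31 ± 1.43, SD over cells) and Hist3h2a (0.40 against 0.19). The 5 lower were Hist1h2ah, with the lowest log2 ratio (-1.56), Hist1h2ag, Hist1h4c, Hist3h2bb-ps and Hist1h2ad, all below 1000 summed values. The members' median log2 ratio was -0.59, beside -0.15 over all genes. That median became 0.00 when only cycling cells of both classes were used, and then 1 member was higher and 1 lower. Within quadrants the order varied. With both lists high 29 of 60 members were at least 2-fold higher in SVZ-like cells (10.8% of all 13242 genes) and none was lower (10.4%). There the members' median log2 ratio was 0.998, beside 0.01 over all genes, and the summed level averaged 262 (SD 100) in 55 SVZ-like cells and 134 (SD 142) in 166 VZ-like cells, with medians of 278 and 16.3. With mitosis genes high the sum averaged 86.2 (SD 106) in 148 SVZ-like cells and 136 (SD 113) in 388 VZ-like cells. Of 61 members 1 was then higher (7.58% of all genes) and 5 lower (14.6%), with a median log2 of -0.56. With replication genes high 3 were higher (7.26%) and 1 lower (9.14%), with a median of 0.35.

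Nearly all members were lower in MGE neurons than in VZ-like cells taken as a whole class. Of 61 members, 58 were at least 2-fold lower in MGE neurons than in VZ-like cells, where 25.6% of all genes were. Another 3 were at least 2-fold higher, where 16.2% of all genes were, and none lay within 2-fold. The median log2 ratio was -4.18, beside -0.19 over all genes, and by type it was -4.60 for H1, -4.75 for H2A, -4.15 for H2B, -4.09 for H3 and -3.28 for H4. Median cell totals were 13503 in VZ-like cells and 11904 in MGE neurons, and levels are scaled to those totals. These ratios rest largely on the high set of VZ-like cells: 47.0% lay at or above 50, and the rest had a summed median of 12.7. Without Hist3h2ba and Hist3h2a the mean sum was 114 in VZ-like cells and 6.19 in MGE neurons. By the same measure it was already 13.4 in the VZ-like cluster 7 and 8.50 in the SVZ-like cluster 16, which was not cycling.

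Among linker histones Hist1h1b stood at 23.6 (SD 27.6) in VZ-like cells and 0.36 (SD 0.62) in MGE neurons, 65.2-fold lower. Hist1h1e was 8.27-fold lower (10.0 to 1.21) and Hist1h1c 8.01-fold lower (1.74 to 0.22). The remaining neuronal level thus differed between linker histones. Among H2A genes Hist1h2ap was 27.0-fold lower (38.6, SD 41.9, to 1.43, SD 1.31) and Hist1h2ae 20.6-fold lower (10.8 to 0.53). Hist1h2af had the lowest ratio (log2 -8.19), which rests on a neuronal level of 0.0009 per 10000. Among H2B genes Hist2h2bb was 23.0-fold lower, and Hist1h2bm stood at 1.14 in VZ-like cells and 0.05 in MGE neurons. Among H3 genes Hist1h3c was 57.1-fold lower (2.63 to 0.05), Hist1h3e 6.04-fold lower (1.90 to 0.31) and Hist1h3i 17.1-fold lower. Among H4 genes Hist1h4d was 9.74-fold lower (3.84 to 0.39), Hist1h4h 7.01-fold lower and Hist1h4a 24.1-fold lower. The smallest decreases were those of Hist1h2al, Hist3h2bb-ps and Hist1h2bc, with log2 -1.38, -1.47 and -1.67. RNA free in the droplets can give low values to cells that do not express a gene, and its part in the neuronal levels was not tested.

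**Figure D5:**
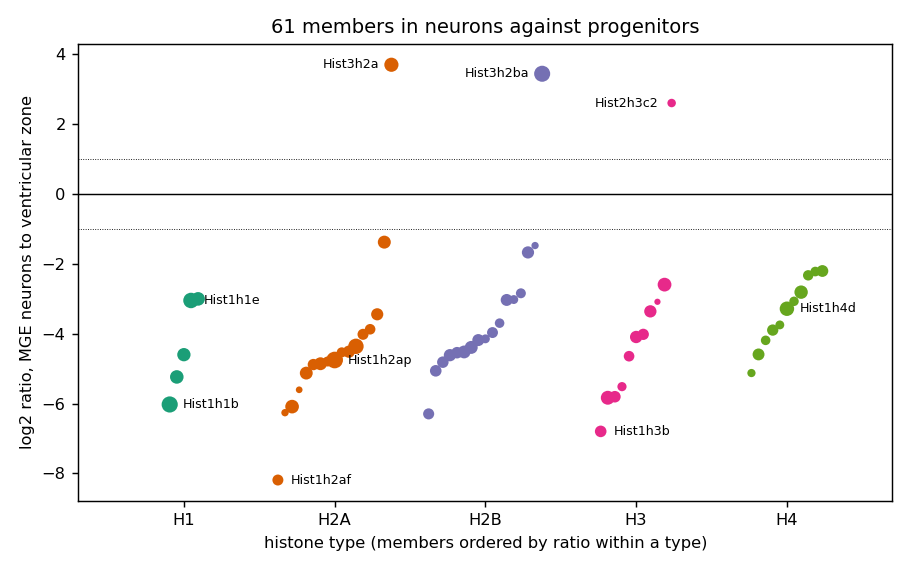
Each point is 1 of 61 members, with its log2 ratio of MGE neurons to VZ-like progenitors (y) grouped by histone type (x); larger points have more summed values, and dotted lines mark 2-fold. All but 3 points lie below the lower dotted line, and the 3 above the upper one are Hist3h2a, Hist3h2ba and Hist2h3c2.

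Hist3h2ba, an H2B gene on chromosome 11 (58948920 to 58949533, plus strand, 1 exon), had the highest level of the 62 members in the neurons, below the variants H3f3a and H3f3b described later. It stood at 14.3 (SD 6.91) in MGE neurons and 1.31 (SD 1.43) in VZ-like cells, 10.9-fold higher. Its level was 13.4 in GABAergic, 15.3 in cholinergic, 13.7 in LGE-like, 12.4 in glutamatergic neuron-like and 9.01 in unnamed cells. Among SVZ-like clusters it was 1.5 in cluster 2, near the 1.35 of the VZ-like cluster 3, 3.57 in cluster 1 and 3.93 in cluster 16. The lowest level, 0.823, was in cluster 8 and the highest, 18.3 (SD 6.86), in the cholinergic cluster 9. So levels in every neuronal class lay above those of every progenitor cluster, including the SVZ-like cluster that was not cycling. Among cells of MGE neurons it did not go with the sum of the other members without Hist3h2a (Spearman -0.06 over 1821 cells).

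Hist3h2a (ENSMUSG00000078851), the H2A gene downstream of it, had the same pattern at a lower level. It stood at 2.43 (SD 2.01) in MGE neurons and 0.19 (SD 0.40) in VZ-like cells, 13.0-fold higher. Across cells of MGE neurons it correlated with Hist3h2ba at 0.43, and over all 3995 cells at 0.71. Because Hist3h2a lies within Trim17 on the same strand, its values cannot be told apart from Trim17 transcripts that share those bases. The pseudogene between them, Hist3h2bb-ps (60 summed values, minus strand), was lower in neurons. Hist2h3c2 on chromosome 3 was 6.10-fold higher in MGE neurons (0.033 against 0.005), from 111 summed values, and only 38.0% of its 90-base windows were its own. Through these members the Hist3 family gave 73.1% of the histone sum in MGE neurons and 1.29% in VZ-like cells, and H2B gave 64.5% and 6.42%.

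GABAergic and cholinergic neurons are the lineages named in the series title. Of 61 members 4 were at least 2-fold higher in cholinergic neuron-like cells (5.33% of all genes) and 6 at least 2-fold lower (4.12% of all genes), and the median log2 ratio was 0.04. The 6 are a larger share of 61 than the background. All 10 had fewer than 1000 summed values, and none had a level above the 0.0215 of Hist1h2bg in GABAergic cells. The highest ratio was that of Hist1h3g (2.04) and the lowest that of Hist1h2ag (-3.29). Hist3h2ba differed by log2 0.19 and Hist3h2a by 0.16. The summed level had a mean of 21.9 (SD 8.02) in GABAergic and 24.0 (SD 8.66) in cholinergic cells. With 1 library this difference cannot be set against a spread between animals.

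Annotated 3′ ends were set beside the neuronal ratios. The 21 with over 100 annotated bases after the stem-loop had a median log2 ratio of -3.05, the 19 with at most 100 had -4.82, and the 21 with no match -4.52. The ranges overlapped widely, from -6.30 to 3.70 with over 100 bases and from -6.80 to -2.81 with at most 100. The 12 with AATAAA in the last 50 bases had a median of -3.03 and the other 49 had -4.52. Without the 3 members higher in neurons these were -3.05 over 10 and -4.53 over 48. Single members lay on both sides, as these show, chosen after their values were seen. Hist1h1e, Hist1h1c and Hist1h4d, with 1153, 840 and 770 bases after the stem-loop, were among the less reduced. Hist1h1d (4884 bases), Hist1h2ac (2010) and Hist1h2bh (1214) lay at log2 -4.60, -4.02 and -6.30. Hist1h3c, with 74 bases, was among the more reduced, while Hist1h4h, with 46, lay at -2.81. The groups without a stem-loop match or without AATAAA can include members whose annotation ends before either feature. These are descriptions of annotated ends, since the ends used in these cells were not measured.

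Promoter letters are shown for Hist1h1b, which followed the histone sum, and for both neuron-high Hist3 genes, which did not. The 250 bases before the RefSeq start (GRCm38.p6) are printed on the gene's strand, at chr13:21780626-21780875 (minus), chr11:58948661-58948910 (plus) and chr11:58954435-58954684 (plus). Capitals mark the letters CCAAT and those of the TATA box (TATAAA), of the octamer (ATTTGCAT) and of the H1 box (AAACACA), on either strand.
Hist1h1b: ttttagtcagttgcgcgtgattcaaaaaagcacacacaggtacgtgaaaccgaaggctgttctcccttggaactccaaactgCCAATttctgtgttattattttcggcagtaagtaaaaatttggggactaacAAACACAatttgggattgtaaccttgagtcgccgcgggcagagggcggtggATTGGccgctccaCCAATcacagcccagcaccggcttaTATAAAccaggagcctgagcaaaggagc
Hist3h2ba: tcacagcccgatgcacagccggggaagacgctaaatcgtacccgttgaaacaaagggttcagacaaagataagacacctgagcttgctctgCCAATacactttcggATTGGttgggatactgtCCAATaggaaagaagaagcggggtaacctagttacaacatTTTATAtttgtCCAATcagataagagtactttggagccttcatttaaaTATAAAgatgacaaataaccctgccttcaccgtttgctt
Hist3h2a: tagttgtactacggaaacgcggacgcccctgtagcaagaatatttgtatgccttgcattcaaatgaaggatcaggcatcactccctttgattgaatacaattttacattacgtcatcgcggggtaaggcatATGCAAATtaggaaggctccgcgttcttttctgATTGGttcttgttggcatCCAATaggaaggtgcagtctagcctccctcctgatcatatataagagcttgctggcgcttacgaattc
In windows from 250 bases before to 50 after the start, found for 54 members, CCAAT was present in 46 (85.2%), against 37.4% of 32851 RefSeq promoters. All 5 H1, 15 H2A, 14 H2B and 9 H3 promoters had it, and 3 of 11 H4. TATAAA was in 59.3% of member promoters and 13.6% of all. The octamer, bound by POU-domain factors, was in 6 of 15 H2A and 5 of 14 H2B promoters and in none of the other 3 types, 20.4% of members against 1.74% of all promoters. The H1 box was in 4 of 5 H1 promoters, against 7.18% of all. The promoters of Hist1h4h, Hist1h4b and Hist4h4 held none of the 4. CCAAT stood 4 times before Hist3h2ba, 3 times before Hist1h1b and 2 times before Hist3h2a. Whether these letters differ between neuron-high and cycling genes was not tested. A match describes letters and not a bound site.

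The machinery that makes and uses histone transcripts was followed through a fixed list of 22 names from histone transcription and 3′ processing. Of these names 19 had a row and 18 at least 30 summed values. Symplekin and Ars2, listed without a row, are other names of Sympk and Srrt, which were listed too and had rows. In MGE neurons 8 of these 18 were at least 2-fold lower than in VZ-like cells, where 25.6% of all genes were. None was higher, where 16.2% of all genes were, and the median log2 was -0.84, beside -0.19 over all genes. Slbp, the stem-loop-binding protein, was at 2.74 in VZ-like cells and 0.62 in neurons (log2 -2.14), and its correlation with the histone sum across cycling cells was 0.30, the highest of the list. Cdk2 (0.12) and Lsm11, a subunit of the U7 particle that cuts histone transcripts (0.11), came next, and Casp8ap2 was lowest (-0.10). E2f1 and E2f2, activators of S-phase genes, were lower in neurons by log2 -4.85 and -5.09, while Lsm10 and Cpsf3 were at -0.04 and -0.01.

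Histone chaperones, which carry histones to DNA, went the same way in part. Of 22 genes, 14 were at least 2-fold lower in neurons, where 25.6% of all genes were, and 8 were within 2-fold (median log2 -1.44). Chaf1a and Chaf1b, of the replication-coupled assembly factor, lay at -3.75 and -3.38 and Asf1b at -5.40. The chaperones Hira and Daxx, which place variant H3 outside replication, lay at -0.46 and -0.37, and Atrx, which acts with Daxx, at 0.71. Across cycling cells Hjurp (0.37), Asf1b (0.30) and Hat1 (0.29) went most with the histone sum, and Nasp least (-0.12).

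Replacement variants went in both directions. Of 11 genes, 1 was at least 2-fold higher in neurons (16.2% of all genes), 4 at least 2-fold lower (25.6%) and 6 within 2-fold. The median log2 was -0.36, beside -0.19 over all genes, and nothing is read from so few counts. H3f3a stood at 22.9 (SD 5.80) in VZ-like cells and 47.8 (SD 9.75) in MGE neurons, and H3f3b at 21.5 (SD 8.78) and 42.2 (SD 12.5), log2 1.06 and 0.98. H2afz stood at 49.4 (SD 10.6) and 13.3 (SD 5.59), log2 -1.89, and H2afx, the variant of the DNA damage response, at 4.87 and 0.84. Unlike the summed members, H2afz stayed between 42.5 and 51.1 in all 12 bins around the cycle. H3f3b and the linker variant H1f0 (both 0.37) went most with the histone sum across cycling cells, followed by H2afx (0.23), which peaked in bin 8 with the mitosis list.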

How the data were processed

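The RNA library of 1 pool was analysed; the sample barcode library held no expression values. The submitters' processing notes name Cell Ranger 3.0.2, bcl2fastq and the build GRCm38, with no role or order. The deposited values are a score: whole numbers that the authors corrected for depth by a step not given in the sources used here, so no count test was run and, with 1 sample, no test of any kind. Scrublet (scanpy 1.11.5, expected rate 5%) called 6 of 4001 cells, which were removed. Such a low call rate does not show that doublets were rare. Clustering left out the members and used 2000 variable genes, 30 components, 15 neighbours and Leiden resolution 1. Class names needed at least 3 fixed markers at 1.5 times the level of other cells and in 10% of a cluster's cells. In 5.37% of cells the value 1 was nearly missing (under 10% of values over 791 genes of mean near 1), as rounding after scaling can give. The share was 3.52% in VZ-like cells and 7.36% in MGE neurons.

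Ratios are of levels per 10000, and a class at 0 took 1 summed value. The size rule was 2-fold among genes with at least 30 summed values. Named were, per histone type, the 3 members of highest sum, members with log2 above -1 in neurons, the extremes of each comparison, and in each list the 3 genes of highest and the 1 of lowest correlation. Exceptions are marked in the text. The members, lists and rules were chosen with earlier results of these data known. Transcripts came from GENCODE M21 and promoters from RefSeq. Alternatives were other clustering settings, filters, splits and bins, and the scripts were tested on simulated data.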

Additional observations from a re-analysis of the deposited data

How the results depend on the processing

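The counts of members lower (58 of 61) and higher (3) in neurons stayed within 1.5 times under all 10 alternatives (53 to 58 and 3), and the ratios of the single genes tested kept their direction in each. The log2 differences of the summed level between quadrants depended on how cells were split. For replication high, both high and mitosis high against both low they were 1.70, 2.03 and 1.65 at clustering resolution 2, and 0.85, 1.27 and 0.72 with splits set above the median. With all cells in place of cycling ones they were -0.35, 2.22 and -0.13, where the first and last reversed. The difference between the highest and lowest bin, 3.49, was 2.61 at resolution 2 and 2.82 without the cells that nearly lack the value 1.

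Counts between like classes moved most. For SVZ-like against VZ-like cells, 1 member was higher and 1 lower with the cycle genes left out of the clustering, 1 and 9 with more variable genes, and, in an alternative added after seeing the data, 1 and 1 in cycling cells only, where the median log2 was 0.00094. Lower members numbered 2 at resolution 0.5, 3 with at least 100 summed values and 32 by a 1.5-fold rule. For cholinergic against GABAergic cells, 7 were higher and 10 lower with the cycle genes left out, 2 higher at resolution 2, 7 higher with called doublets kept, and 11 lower by the 1.5-fold rule. The classes compared changed as well. The cholinergic class held 905 cells in the main setting, 265 with the cycle genes left out and 342 with called doublets kept. Unnamed cells numbered 151, 943 and 724 in the same order. So these counts do not compare the same cells, and the cause of their change was not tested. Leaving out Hist3h2ba and Hist3h2a, also added later, changed no call on quadrants, bins or type shares. No paired analysis was possible because there is 1 RNA library, and no replicate could be left out. Depth limits rare members: 6 had under 100 summed values, and raw depth per cell is unknown.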

Other observations

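By Pearson correlation of log2 levels over the 16 clusters, a measure chosen after its values were seen, the genes most like Hist3h2ba were Evl, an actin regulator (0.992), Trafd1 (0.991), Kifap3, a kinesin-2 subunit (0.991), Ttc3 (0.989), Aplp1, a relative of the amyloid precursor (0.988), and Ap2b1, an adaptor of endocytosis (0.988). The next was its neighbour Hist3h2a (0.988). Aplp1 stood at 0.147 in cluster 4, 0.974 in cluster 16 and 4.51 in the GABAergic cluster 10, and Hist3h2ba at 1.16, 3.93 and 14.4. All points come from 1 library and share its cells, and many genes that differ between progenitors and neurons correlate this way over so few clusters.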
